A study of Mus musculus with 19 samples.

Results

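Of 19 primary sarcomas with deposited RNA sequencing values, 12 were set against each other by how much skeletal muscle RNA their libraries held, the 6 muscle-rich and the 6 muscle-poor tumors. They were chosen by their measured values: in each tumor the log2 values of 4 genes of the muscle fiber, Ckm, Acta1, Mylpf and Tnnt3, were averaged into a muscle score, and the 6 highest and the 6 lowest of the 19 scores were taken. Because the values themselves chose the tumors, the comparison across genes is a description and carries no test. The other 7 tumors lay between the sides, took no part in the contrast and gave the only test of other genes against the score. For muscle genes that test is not independent, since the score is itself made of muscle genes.

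The tumors came from mice of 6 to 10 weeks that received Adeno-sgp53-Cas9, an adenovirus that delivers Cas9 and a guide RNA against Trp53, into the gastrocnemius muscle of the calf, and then 300 µg of the carcinogen MCA at the same place. The mice were Rag2-/-, which lack mature T and B cells, or Rag2+/- littermates with an intact immune system, and both genotypes received the same agents. Tumors were taken untreated at about 70 to 150 mm3, and each library is total RNA of 1 whole tumor, so it holds tumor cells together with stroma, immune cells and whatever host muscle the specimen contained. Of the 19 tumors, 11 were Rag2-/- and 8 were Rag2+/-. All values below are the authors' upper-quartile normalized FPKM (fragments scaled by transcript length and library size), as log2(FPKM + 0.1), so that a gene without fragments stands at the floor of -3.32.

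Skeletal muscle fibers are long cells with many nuclei whose interior is packed with sarcomeres, in which myosin thick filaments pull on actin thin filaments anchored at the Z disc. Calcium released from the sarcoplasmic reticulum starts contraction through the troponin complex on the thin filament, and creatine kinase, glycogen breakdown, glycolysis and mitochondria supply the energy. The mouse gastrocnemius is made mostly of fast fibers. Mature fibers have left the cell cycle, and their growth and repair depend on satellite cells and on the myogenic transcription factors. In bulk tissue, fewer cells of a type and less RNA per cell cannot be told apart, so the score is a level of muscle RNA in a library and not a count of fibers.

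For the promoters of 3 of the 4 markers, and of 3 genes of dividing cells among the 15 with the largest downward differences of those without overlap, the RefSeq sequences from 250 bases before to 50 bases after the gene start are shown because their genes move in opposite directions along the score. The table is of GRCm38.p6. Both strands were searched for the E box (CANNTG, the motif of the myogenic factors), the CArG box (bound by serum response factor), the CHR (TTTGAA) and the CCAAT box (CCAAT), where a CCAAT box can overlap an E box or a CArG box. The motifs were chosen after the values were seen. Ckm makes the muscle creatine kinase, Acta1 the skeletal alpha actin of the thin filament, and Mylpf the fast myosin regulatory light chain. Their windows are chr7:19410844-19411143 on the plus strand for Ckm, chr8:123894726-123895025 on the minus strand for Acta1 and chr7:127211358-127211657 on the plus strand for Mylpf, each printed 5′ to 3′ with E boxes and CArG boxes in capitals. Tnnt3, the fast skeletal troponin T, is named only.
Ckm: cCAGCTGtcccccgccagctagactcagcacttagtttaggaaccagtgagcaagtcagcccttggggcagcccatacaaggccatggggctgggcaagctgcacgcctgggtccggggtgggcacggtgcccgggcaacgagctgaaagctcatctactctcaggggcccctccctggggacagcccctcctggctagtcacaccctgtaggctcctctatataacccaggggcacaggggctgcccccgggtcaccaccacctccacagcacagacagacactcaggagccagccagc
Acta1: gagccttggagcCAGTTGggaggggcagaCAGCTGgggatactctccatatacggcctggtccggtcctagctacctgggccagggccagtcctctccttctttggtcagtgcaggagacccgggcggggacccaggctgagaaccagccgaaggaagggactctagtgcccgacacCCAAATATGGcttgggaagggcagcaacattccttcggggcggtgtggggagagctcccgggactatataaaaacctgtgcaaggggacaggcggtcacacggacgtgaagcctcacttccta
Mylpf: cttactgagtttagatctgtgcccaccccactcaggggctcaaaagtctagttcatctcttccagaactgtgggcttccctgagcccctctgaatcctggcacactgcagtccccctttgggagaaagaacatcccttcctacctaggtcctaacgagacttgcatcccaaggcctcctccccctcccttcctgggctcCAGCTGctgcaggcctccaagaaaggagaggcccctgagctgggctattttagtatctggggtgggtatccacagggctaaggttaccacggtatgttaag
Mki67 encodes the proliferation marker Ki-67, Aspm a spindle pole protein and Ccnf cyclin F. Their windows are chr7:135716330-135716629 on the minus strand for Mki67, chr1:139454523-139454822 on the plus strand for Aspm and chr17:24251360-24251659 on the minus strand for Ccnf, with CHR and CCAAT boxes in capitals.
Mki67: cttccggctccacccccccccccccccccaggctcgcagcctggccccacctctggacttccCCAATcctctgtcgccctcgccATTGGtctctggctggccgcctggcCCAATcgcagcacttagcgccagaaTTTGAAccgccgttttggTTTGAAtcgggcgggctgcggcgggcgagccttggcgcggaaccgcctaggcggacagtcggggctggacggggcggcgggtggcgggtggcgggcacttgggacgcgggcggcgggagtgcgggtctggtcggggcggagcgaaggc
Aspm: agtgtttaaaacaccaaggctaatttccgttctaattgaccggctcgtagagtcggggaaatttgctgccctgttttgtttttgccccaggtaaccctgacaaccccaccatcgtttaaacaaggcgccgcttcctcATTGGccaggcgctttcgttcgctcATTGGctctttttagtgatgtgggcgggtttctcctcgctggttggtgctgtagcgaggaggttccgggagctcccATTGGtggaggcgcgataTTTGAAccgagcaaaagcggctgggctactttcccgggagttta
Ccnf: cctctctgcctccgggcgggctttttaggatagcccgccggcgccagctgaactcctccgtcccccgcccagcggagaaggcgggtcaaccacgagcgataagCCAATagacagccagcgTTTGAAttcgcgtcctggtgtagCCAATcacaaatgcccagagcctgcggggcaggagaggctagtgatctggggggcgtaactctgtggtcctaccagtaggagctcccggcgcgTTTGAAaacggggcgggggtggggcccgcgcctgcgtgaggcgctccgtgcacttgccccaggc
An E box lay in 69 of the 83 muscle-list genes with a promoter in the table (83.1%) and in 72.1% of all 27025 promoters. A CArG box lay in 7 of the 83 (8.43%) and in 1.57% of all promoters. Of the 20 cell cycle genes with an entry, 11 held a CHR (55%) and 18 a CCAAT box (90%), where all promoters held them in 18.1% and 37.9%. A match is a run of letters and not a bound site.

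The 4 markers moved as 1 block. Ckm (ENSMUSG00000030399) was at 14.53, 14.36, 14.06, 13.84, 13.46 and 11.31 in the muscle-rich tumors S56, S60, S51, S59, S52 and S47, and at 9.22, 8.97, 8.55, 7.94, 6.41 and 5.54 in the muscle-poor tumors S42, S46, S41, S53, S43 and S48. Acta1 (ENSMUSG00000031972) was at 11.81 to 15.36 with a median of 14.43 on the muscle-rich side and at 6.38 to 9.99 with a median of 9.24 on the other. Mylpf (ENSMUSG00000030672) was at 11.24 to 14.08 and at 4.80 to 8.93, and Tnnt3 (ENSMUSG00000061723) at 11.77 to 14.54 and at 5.47 to 9.59. The sides do not overlap in any of the 4 genes, as their choice makes likely, and S47 was the lowest muscle-rich tumor in each.

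The muscle score was 13.62 ± 1.09 (SD, n = 6) in muscle-rich and 7.91 ± 1.46 (SD, n = 6) in muscle-poor tumors. The ranking was not evenly spaced. Within the muscle-rich side S52 at 13.48 and S47 at 11.53 were 1.95 apart, whereas S47 stood only 0.52 above S54 at 11.01, the highest tumor left out. At the other edge S42, the highest muscle-poor tumor at 9.35, and S58, the lowest tumor left out at 9.42, were 0.06 apart. The upper 5 tumors therefore stood apart, while the score had no break at the lower edge. Within the muscle-poor side it stepped from 8.02 in S53 to 6.85 in S43 and 5.55 in S48.

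**Figure D1:**
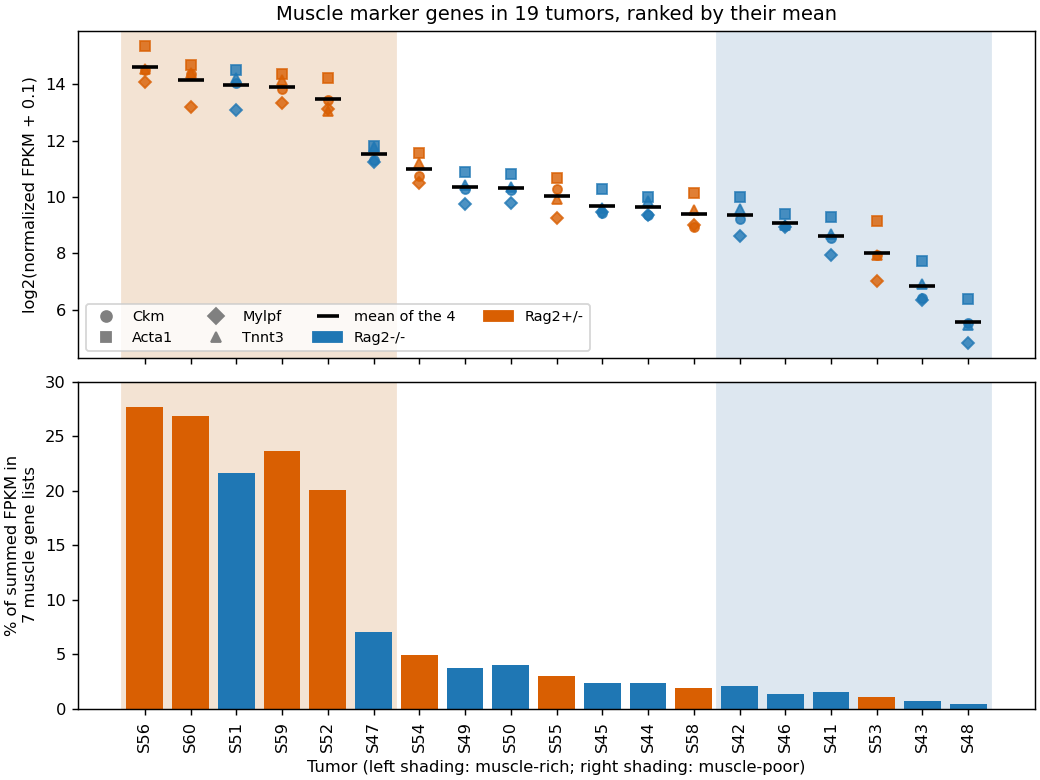
The upper panel gives the log2 value of each marker (symbols) and their mean (black bars) in the 19 tumors, ranked from left to right, and the lower panel the percent of summed FPKM that fell on the genes of the 7 muscle lists, with Rag2-/- tumors in blue and Rag2+/- tumors in orange. In 5 muscle-rich tumors the muscle lists held 20.1 to 27.6% of the sum, in S47 6.98%, and in the muscle-poor tumors 0.41 to 2.09%.

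Both sides held both genotypes, in unequal numbers. The muscle-rich side had 4 Rag2+/- tumors (S56, S60, S59 and S52) and 2 Rag2-/- tumors (S51 and S47), the muscle-poor side had 1 Rag2+/- tumor (S53) and 5 Rag2-/- tumors, and 3 Rag2+/- and 4 Rag2-/- tumors lay between. Over all 19 tumors 11 Rag2-/- tumors had a mean score of 9.54 ± 2.22 (SD) and 8 Rag2+/- tumors 11.83 ± 2.53 (SD). The difference was -2.29, and a two-sided exact permutation test gave p = 0.0524. The share of summed FPKM on the 7 muscle lists averaged 4.27 ± 6.03% (SD) in the Rag2-/- and 13.6 ± 11.9% (SD) in the Rag2+/- tumors, for which the same exact test gave p = 0.0476. Adjusted over these 2 measures by Benjamini-Hochberg, both exact tests stood at p = 0.0524. Neither difference passed the adjusted threshold of 0.05, whereas a score averaged over the other sarcomere genes differed by -1.99, with an unadjusted exact p = 0.0265. With 1 tumor left out the difference was -2.84 to -1.89 with an exact p = 0.0163 to 0.11: it was at 0.0163 to 0.0436 without S47, S51, S53, S55 or S58 and at 0.0557 to 0.11 without any of the other tumors. These p-values measure the spread between tumors.

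Sex chromosome genes divided the sides almost as the score did. Xist, the RNA of the inactive X chromosome in females, was above a log2 value of 2 in 1 of 6 muscle-rich tumors (S47) and in 5 of 6 muscle-poor tumors (all but S46), and the Y-linked Ddx3y was above 2 in the other 5 and the other 1. Of the 7 tumors between, 4 had Xist above 2 and 3 had Ddx3y. Among Rag2-/- tumors Xist was above 2 in 1 of 2 muscle-rich, 2 of 4 between and 4 of 5 muscle-poor tumors. Among Rag2+/- tumors it was above 2 in 0 of 4, 2 of 3 and 1 of 1. The genotype test above took no account of this imbalance. The part of sex in the differences below was not tested. Median slopes on the score are given below within the 10 tumors with high and the 9 with low Xist. They cover the mitochondrial, cell cycle, mesenchymal and adipocyte lists. In other lists the median slope was positive with high and negative with low Xist. It was 0.05 and -0.17 for macrophage, 0.11 and -0.10 for endothelial, and 0.35 and -0.11 for mast cell genes. For NK cell genes it was 0.11 and -0.08, and for type I interferon genes 0.06 and -0.12. For MHC class I genes it was 0.08 and -0.05, and for MHC class II genes 0.17 and -0.10. Of the labelled targets, Rag2 stood at -2.05 to 0.36 in Rag2-/- and at -2.33 to -0.57 in Rag2+/- tumors, so that its RNA level does not separate the genotypes, and Trp53 RNA was present throughout (3.47 to 6.35).

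Libraries on both sides stood apart. Estimated depth was 24.9 to 33.5 M fragments on genes in 18 tumors and 5.17 M in the muscle-poor S41. Summed FPKM was 480540 to 987480 on the muscle-rich and 407580 to 496720 on the muscle-poor side, since upper-quartile scaling does not fix the sum. The muscle-poor S46 (Rag2-/-, low Xist) was unlike the other 5 muscle-poor tumors: its mean over the adipocyte list was 9.11, where theirs were -0.19 to 1.15, and it was the lowest muscle-poor tumor in the cell cycle list (3.78 against 4.61 to 5.19) and the mesenchymal list (6.63 against 7.13 to 7.42). Where leaving it out moved a count or list median printed below by more than 1.5 times, the value is also given without it, from the 6 and 6 tumors chosen again from the other 18 with S58 in its place.

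Across 12826 genes with a mean log2 value above 0, the median difference between muscle-rich and muscle-poor tumors was -0.13, and the values of the 2 sides did not overlap in 1063 genes higher in muscle-rich tumors (8.29%) and 799 genes lower (6.23%). Without S46 these counts were 1568 (12.2%) and 1921 (14.98%), so the balance between the directions rests on that tumor. Leaving out S51, S52, S56, S59 or S60 and choosing the sides again gave 697 to 730 higher and 325 to 368 lower genes, and leaving out S47 gave 885 and 450. The higher genes had the larger differences: 286 genes differed by 4 log2 units or more upward, 269 of them without overlap, whereas 2 genes differed by as much downward. Of the 286, 75 belonged to the muscle lists. When tumors were scaled to the same summed FPKM outside the muscle lists, the median over all genes moved to -0.50 and the counts to 904 higher and 1005 lower, so small differences in either direction are read against that shift.

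The 7 lists of muscle genes held 121 genes, of which 109 passed the level filter. The sides did not overlap in 88 of the 109, all higher in muscle-rich tumors, where 8.29% of all genes were. The other 21 overlapped, and the median difference was 4.79. Without S46 it was 84 of 109, where 12.2% of all genes were, with a median of 4.66. The counts of each muscle list below stand beside the same shares of all genes. Since the score is itself made of muscle genes, this is a description of what the choice selected. What follows concerns how its parts differ.

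Thin filament genes were higher in muscle-rich tumors in 14 of 15 cases. Tnnc2, the fast troponin C that binds calcium, had a lowest, median and highest log2 value of 10.92, 13.47 and 13.83 in muscle-rich and 4.73, 7.37 and 8.48 in muscle-poor tumors, a difference of 5.88. Tnni2, the fast inhibitory troponin, differed by 5.67, from 11.22 to 14.03 on the muscle-rich and 5.10 to 8.81 on the muscle-poor side. Tmod4, which caps the pointed end of the thin filament, was lower in level, 6.52 to 9.21 against 0.79 to 4.35, and differed by 5.35. Of the 15 thin filament genes 11 did not overlap, with a median difference of 4.31. The 4 that overlapped were the slow troponins Tnni1, Tnnt1 (2.55) and Tnnc1 (2.47) and Tpm3 (-0.49), a tropomyosin that many other cells also make.

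Thick filament and M band genes showed the same order of difference, with a median of 5.06 and no overlap in 13 of 16 genes that passed the filter, of 17 listed. Myl1, a fast essential light chain, was at 10.55, 13.21 and 13.62 (lowest, median, highest) in muscle-rich and 4.67, 7.27 and 8.61 in muscle-poor tumors. Mylk4, a myosin light chain kinase family member, was at 4.15, 7.72 and 8.65 and at -1.72, 1.09 and 2.60. Mybph, a myosin-binding protein H, was at 4.77 to 8.59 and -1.85 to 2.47. The sides did not overlap in any of the 3, and S47 was the lowest muscle-rich tumor in Myl1 and Mylk4 and S59 in Mybph.

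At the Z disc 20 of 22 genes did not overlap, with a median difference of 4.82. Myoz1, a calsarcin of fast fibers that binds calcineurin, had a median of 10.38 and a highest value of 10.99 in muscle-rich and of 4.26 and 5.47 in muscle-poor tumors. Ldb3, a scaffold that holds alpha-actinin, was at 6.93, 8.83 and 10.15 and at 1.05, 3.65 and 4.35. Both were among the 8 genes whose values followed the score most closely.

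Of 19 genes of excitation and calcium handling 17 did not overlap, with a median difference of 4.96. Pvalb, the calcium buffer parvalbumin of fast fibers, was at 10.78 to 13.32 in muscle-rich and 4.60 to 8.44 in muscle-poor tumors. Casq1, the calcium store protein calsequestrin of the sarcoplasmic reticulum, was at 7.98 to 10.65 and 2.04 to 5.70, and Atp2a1, its fast calcium pump, at 10.66 to 13.24 and 5.08 to 8.70. Atp2a2, the pump of slow fibers that most other cells also use, differed by -0.43 and overlapped. The fast form of the pump and its widely used relative thus stood on different sides of 0.

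Energy genes of the fiber had the largest median of the 7 lists, 5.24, and 17 of 18 did not overlap (18 of 18 without S46). Ckmt2, the mitochondrial creatine kinase of sarcomeric muscle, was at 6.03, 7.58 and 10.23 in muscle-rich and 0.07, 2.07 and 2.72 in muscle-poor tumors. Pgam2, the muscle phosphoglycerate mutase, was at 8.35, 10.56 and 11.46 and at 2.28, 4.73 and 5.96. Pygm, which releases sugar from glycogen in muscle, was at 8.56 to 11.53 and 2.46 to 6.48.

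Genes of developing or regenerating fibers and of satellite cells differed less. Of 15 developmental genes 8 passed the filter, 4 did not overlap and the median difference was 2.47 (2 and 2.10 without S46, whose list mean of 0.01 was the lowest of the muscle-poor side). Actc1, the cardiac actin of embryonic muscle, was at 4.70, 6.61 and 7.67 in muscle-rich and -1.26, 0.64 and 1.97 in muscle-poor tumors. Musk and Rapsn, which cluster acetylcholine receptors at the nerve contact, differed by 2.99 and 2.75, Musk with overlap. Of 15 myogenic regulators and satellite cell genes 11 passed, 6 did not overlap and the median was 2.91. Myf6, the myogenic factor most abundant in mature fibers, was at 3.85, 6.90 and 7.69 and at -0.44, 1.19 and 3.18. Myod1 and Myog, which drive commitment and differentiation of myoblasts, differed by 4.48 and 3.74, and Vgll2, a cofactor found in muscle, by 3.94, all 3 without overlap.

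**Figure D2:**
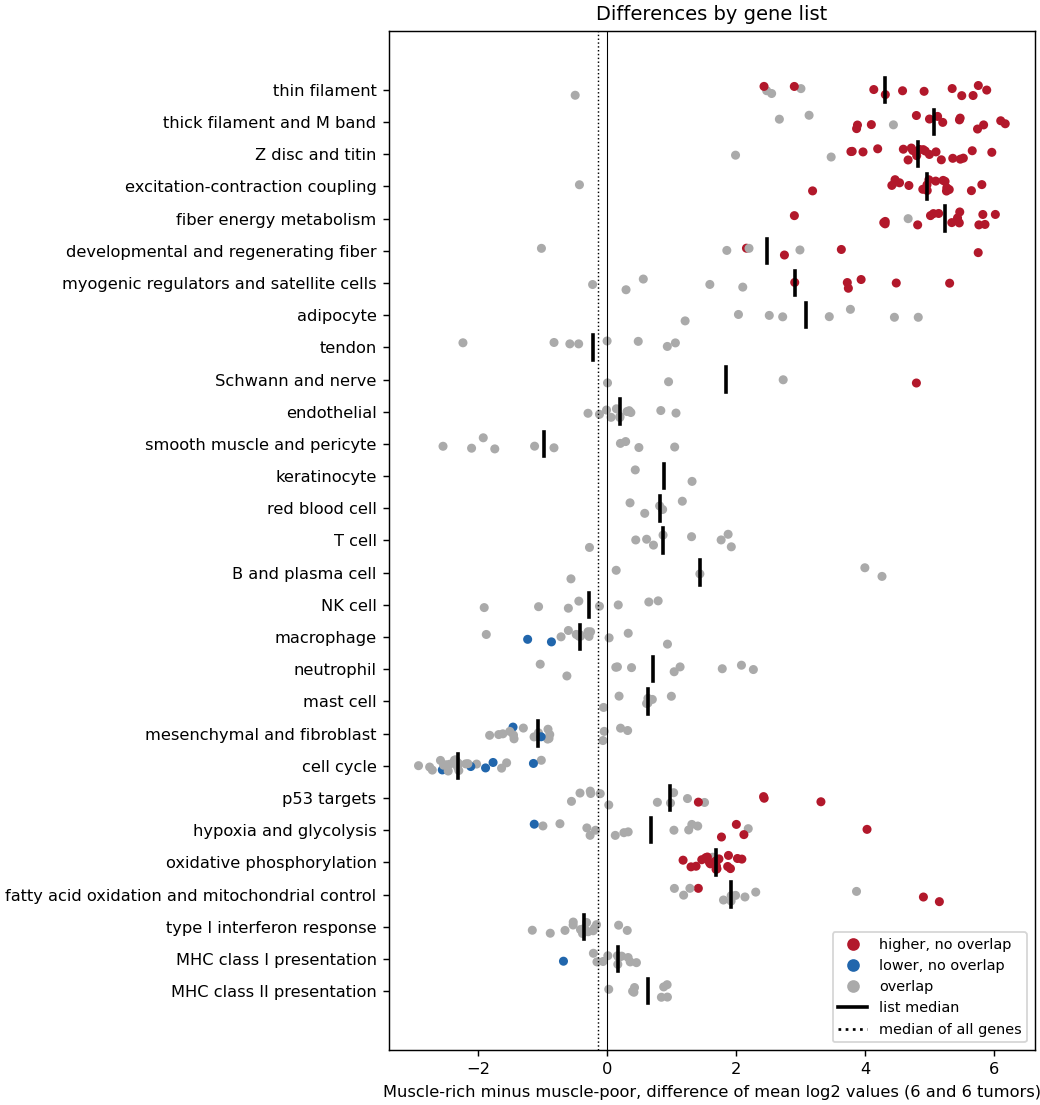
Each point is a gene that passed the filter, placed by the muscle-rich minus muscle-poor difference of mean log2 values (6 and 6 tumors) and coloured red or blue where the sides do not overlap. Black bars are list medians and the dotted line the median of all genes at -0.13. The 5 lists of mature fiber genes lie between 4.31 and 5.24, the 2 lists of regenerating fibers and myogenic regulators at 2.47 and 2.91, oxidative phosphorylation at 1.69 and the cell cycle at -2.31.

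Fiber type genes are given as a description, since the score itself uses Tnnt3 and Mylpf, which are fast fiber genes, and the fast list holds Tnnt3. Of 11 fast genes 11 did not overlap, with a median difference of 5.46. Of 10 slow genes 1 did not overlap, Casq2, the calsequestrin of slow and cardiac muscle (3.18). This count is near that of all genes, of which 8.29% were higher without overlap. The slow median was 2.84 (2.08 without S46). Myl3, Myoz2 and Myl2, the slow light chains and the slow calsarcin, differed by 4.44, 3.47 and 3.13, each with overlap. Myl2 was at 0.70 to 8.14 within the muscle-rich side alone, while Atp2a2 and Tpm3, the calcium pump and the tropomyosin of slow fibers and of many other cells, differed by -0.43 and -0.49 with overlap.

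Myosin heavy chains were compared per length as shares of the summed FPKM of 6 genes, Myh4, Myh1, Myh2, Myh7, Myh3 and Myh8, all of the adult limb and developmental chains in the lists. Myh4, the chain of the fastest (IIb) fibers, led in all 19 tumors, with 66.3 to 97.3% (median 90.1%) on the muscle-rich, 70.3 to 89.2% (median 81.6%) between and 58.6 to 94.4% (median 82.3%) on the muscle-poor side. Myh7, the slow chain, made up 0.012 to 0.835% (median 0.267%) and 0.0064 to 9.01% (median 1.22%). The embryonic Myh3 and perinatal Myh8 stayed below 0.1% of the sum on both sides, and in the tumors between they reached 0.833% and 0.134%. The shares overlap between the sides, while the sum of the 6 genes was 1332 to 11968 FPKM on the muscle-rich and 28.2 to 469 FPKM on the muscle-poor side.

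**Figure D3:**
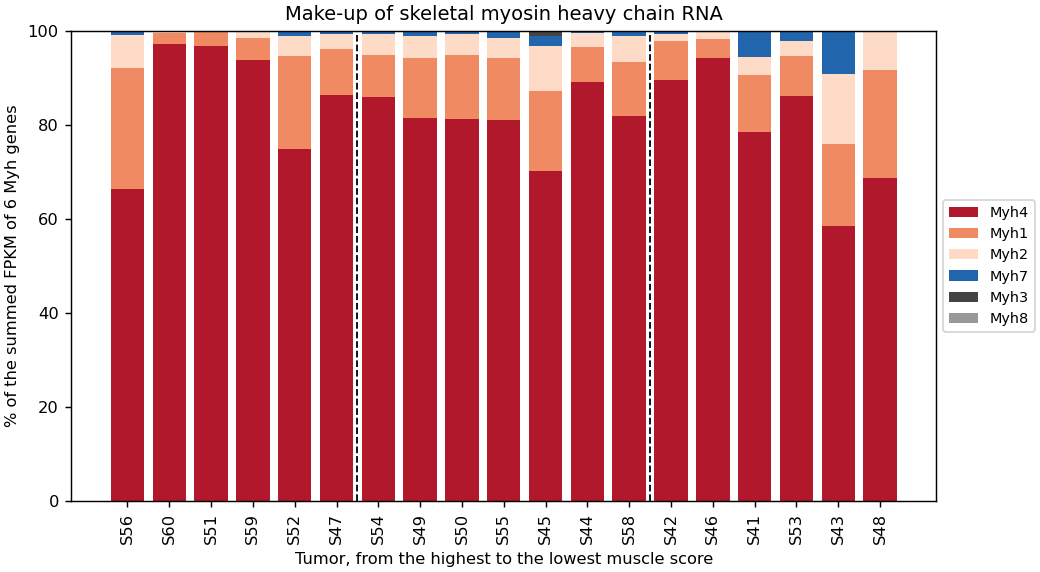
Bars give, for each of the 19 tumors from the highest to the lowest score, the percent of the summed FPKM of 6 myosin heavy chain genes that each gene held, with dashed lines at the edges of the sides. Myh4 is the largest part of every bar, and visible Myh7 parts, up to 9.01%, occur among the muscle-poor tumors.

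Genes of mitochondria were higher with smaller differences. Of 21 genes of oxidative phosphorylation 20 did not overlap and were higher in muscle-rich tumors (21 without S46), with a median difference of 1.69. Of all genes 8.29% were higher without overlap, and 12.2% without S46. Uqcrfs1, the iron-sulfur protein of complex III, was at 6.55, 7.72 and 8.90 in muscle-rich and 5.31, 5.48 and 6.27 in muscle-poor tumors. Uqcrc1 of complex III differed by 2.02 and Cox5a of complex IV by 1.88. In the fatty acid oxidation list 3 of 13 genes that passed the filter did not overlap, where 8.29% of all genes were higher without overlap. Without S46 all 13 did not, where 12.2% of all genes were. The list medians were 1.92 with and 2.24 without S46. Ucp3, the uncoupling protein of muscle, was at 3.25 to 6.43 and -2.95 to 2.11, and Cpt1b, the muscle form of the enzyme that admits fatty acids to mitochondria, at 4.02 to 7.24 and -0.82 to 1.84. Median slopes on the score were 0.08 in tumors with high and 0.41 in tumors with low Xist for oxidative phosphorylation, and 0.17 and 0.35 for fatty acid oxidation. Lpl, which frees fatty acids from blood lipids, was at 6.36 to 7.99 in muscle-rich tumors, at 10.08 in S46 and at most at 5.46 in the other muscle-poor tumors.

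Of 18 genes of glycolysis and hypoxia 12 differed upward and 6 downward, 4 higher and 1 lower without overlap, where 8.29% and 6.23% of all genes were. Without S46 they were 5 and 2 (27.8% and 11.1%), where 12.2% and 14.98% of all genes were, so the lower count is not above that of all genes. Aldoa, the aldolase of muscle, was at 11.62, 13.96 and 14.54 in muscle-rich and 8.70, 9.66 and 10.12 in muscle-poor tumors, and Gapdh and Hk2, the insulin-responsive hexokinase, were at 10.10 to 12.69 against 9.28 to 9.90 and at 3.83 to 5.96 against 2.67 to 3.76, without overlap. Eno1, the enolase of most non-muscle cells, went the other way, with -1.13 and no overlap. Pfkfb3, which raises glycolytic flux, differed by 2.19 with overlap, and the list median was 0.68.

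Genes of dividing cells were lower in muscle-rich tumors. All 24 genes of the cell cycle list had a negative difference, with a median of -2.31. Of them 5 did not overlap in the 6 and 6 tumors (Mki67, Mcm3, Mcm5, Pcna and Rrm2), where 6.23% of all genes were lower without overlap. Without S46 all 24 did not overlap, where 14.98% of all genes were lower without overlap. Mki67 was at 0.66, 1.38 and 3.27 (lowest, median, highest) in muscle-rich and 3.72, 4.46 and 4.89 in muscle-poor tumors. Cdc20, which activates the anaphase promoting complex, was at -1.82 to 4.62 and 3.61 to 5.58, and the mitotic kinases Plk1, Aurkb and Cdk1 differed by -2.75, -2.71 and -2.58, each with overlap.

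The list mean of the cell cycle varied within the muscle-rich side. It was 2.04, 2.21, 1.14 and 2.13 in S56, S60, S51 and S59, 3.69 in S52 and 4.08 in S47. The 13 other tumors stood between 3.78 (S46) and 5.19. The 4 lowest tumors, 3 of them Rag2+/- and 1 Rag2-/-, were all muscle-rich, S52 was also below the 13, and S47 was above S46 and below the 5 other muscle-poor tumors. Median slopes on the score were -0.40 in Rag2-/- and -0.51 in Rag2+/- tumors, and -0.18 and -0.55 in tumors with high and low Xist.

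Mesenchymal and fibroblast genes, which tumor cells of a sarcoma also express, had a median difference of -1.06, and 17 of 19 differences were negative. Col1a1, the main collagen of connective tissue, and Vim, the intermediate filament of mesenchymal cells, did not overlap (-1.46 and -1.02): 2 of 19 genes, where 6.23% of all genes were lower without overlap. Without S46 it was 5 of 19 (26.3%), where 14.98% of all genes were. Fn1, the matrix protein fibronectin, was at 6.48, 7.65 and 9.03 in muscle-rich and 7.70, 9.86 and 10.14 in muscle-poor tumors. Twist1, Pdgfra and Postn, a transcription factor, a growth factor receptor and a matrix protein, differed by -1.68, -1.61 and -1.51 with overlap. With 1 tumor left out the Postn difference ran from -1.76 to -0.74. Median slopes were -0.22 in Rag2-/- and -0.26 in Rag2+/- tumors, but -0.01 in the 10 tumors with high Xist and -0.31 in the 9 with low Xist. Adam12, a metalloprotease of the mesenchyme outside the list, was at 1.24 to 3.46 and 4.36 to 5.16.

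**Figure D4:**
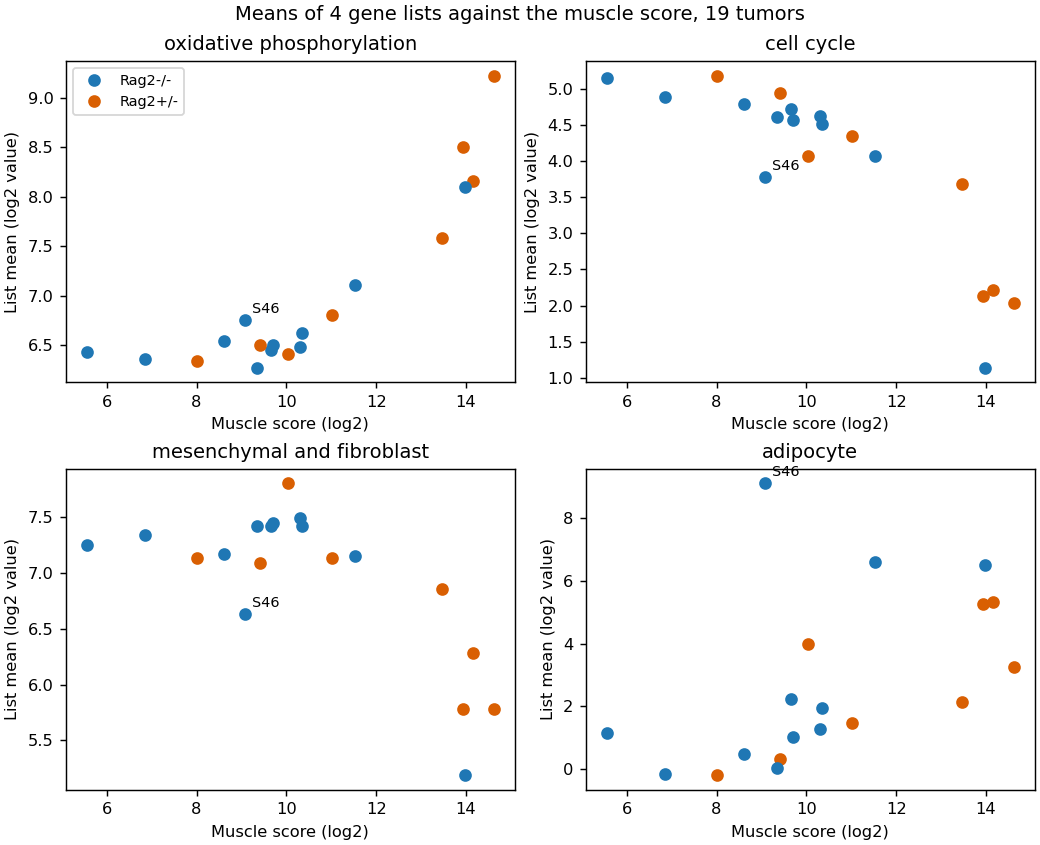
Each panel plots the mean log2 value of a gene list against the muscle score in 19 tumors, Rag2-/- in blue and Rag2+/- in orange, with S46 named. In the 5 tumors with the highest scores the means of oxidative phosphorylation are 7.58 to 9.22 and those of the cell cycle 1.14 to 3.69, where the other 14 tumors reach from 6.28 to 7.11 and from 3.78 to 5.19. S46 is the highest tumor of the adipocyte panel at 9.11.

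The mean of the adipocyte list was 2.15 to 6.61 in muscle-rich tumors, -0.19 to 1.15 in 5 muscle-poor tumors and 9.11 in S46. Of 12 adipocyte genes 8 passed the filter, 0 were without overlap, where 8.29% of all genes were higher, and the median difference was 3.08. Without S46 4 of 8 did not overlap, where 12.2% of all genes were higher, and the median was 4.65. Cfd, the secreted protease adipsin, was at 2.23, 6.63 and 9.82 in muscle-rich and -2.80, -0.09 and 10.48 in muscle-poor tumors, the last being S46. Cidec and Plin1, which coat lipid droplets, were at -3.32, the value of no fragments, in 4 and 3 of the muscle-poor tumors and at 8.75 and 8.47 in S46. The summed FPKM of the adipocyte list was 147 to 1816 on the muscle-rich and 27.0 to 7904 on the muscle-poor side. Median slopes were 0.81 in tumors with high and 0.27 in tumors with low Xist. The part of this list in the differences of fatty acid genes was not tested.

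Nerve genes were few. Of 10 Schwann cell and nerve genes 4 passed the filter with a median difference of 1.84. Mbp, a protein of myelin, differed by 2.73 with overlap. Of 10 smooth muscle and pericyte genes 6 had negative and 4 positive differences, all with overlap, and the median was -0.97. Without S46 1 of 10 was lower without overlap, where 14.98% of all genes were. Cnn1 and Acta2, calponin and the smooth muscle actin, differed by -2.54 and -2.10, and Rgs5, a regulator of G protein signaling in pericytes, by 1.05. Tendon genes had a median of -0.22 (-0.67 without S46, and up to 0.19 with another tumor left out). Of their differences 4 were positive and 4 negative, 0 of them without overlap (1 lower without S46, where 14.98% of all genes were). Tnc, the matrix protein tenascin C, differed by -2.23 (-3.14 to -1.22 with 1 tumor left out). Kera, the proteoglycan keratocan, differed by 1.06 (0.59 to 1.66), and Scx, the tendon transcription factor, by 0.93 (0.38 to 1.29). Endothelial genes had a median of 0.20 (0.31 without S46, and down to -0.07 with another tumor left out), which turned to -0.44 when tumors were scaled to equal sums outside the muscle lists. Red cell and keratinocyte genes had medians of 0.81 and 0.88 with 0 genes without overlap among 5 and 2 that passed. Within genotypes the red cell median was 1.29 in Rag2-/- and -0.31 in Rag2+/- tumors.

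Immune lists overlapped between the sides. Medians were 0.87 over 9 T cell genes, 1.44 over 5 B and plasma cell genes, -0.28 over 8 NK cell genes, 0.71 over 10 neutrophil genes and 0.63 over 7 mast cell genes, each with 0 genes without overlap. Leaving 1 tumor out gave 0.38 to 1.18, 0.77 to 1.64, -0.65 to 0.10, 0.50 to 1.13 and 0.18 to 0.76 in that order. The NK cell median thus changed sign. The neutrophil median was 1.13 without S46, with 1 of 10 genes higher without overlap, where 12.2% of all genes were. With equal sums outside the muscle lists the T cell median was 0.15, and the mast cell median turned to -0.0035. Here genotype moves with the sides. Igkc, the kappa light chain of antibodies, was at the floor in both muscle-rich Rag2-/- tumors, and S53, the 1 Rag2+/- tumor of the muscle-poor side, was at 5.61 where the others were at -0.80 or less. Median differences between the muscle-rich and muscle-poor tumors of 1 genotype follow for Rag2-/- and then Rag2+/-, which has 1 muscle-poor tumor. They were 0.66 and 0.68 for NK cell genes, opposite to the pooled sign, and -0.25 and 0.53 for B and plasma cell genes. For T cell, neutrophil and mast cell genes they were 0.57 and 0.91, 1.55 and 2.02, and 1.17 and 0.44. Within a genotype the median slopes on the score were 0.13 (Rag2-/-) and -0.00078 (Rag2+/-) for T cell genes, and -0.24 in Rag2+/- tumors for B and plasma cell genes. Cd2, an adhesion receptor of T and NK cells, differed by 1.88 with overlap.

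Macrophage genes had a median difference of -0.42 over 16 genes (-0.51 to -0.22 with 1 tumor left out, -0.29 without S46). It was -0.78 with equal sums outside the muscle lists, -0.73 under quantile normalization and -0.19 with S41 and S56 taken off the sides. Mrc1, the mannose receptor, was at 3.40 to 5.43 against 5.47 to 7.36, just without overlap. Csf1r, the receptor for the growth factor CSF1, was at 4.52 to 6.35 against 6.36 to 7.91, also just without overlap. They were 2 of 16 genes, where 6.23% of all genes were lower without overlap. Without S46 neither kept apart and 0 of 16 did, where 14.98% of all genes were lower without overlap. Spp1, the secreted osteopontin, differed by -1.87 and Cd163, a scavenger receptor of macrophages, by 0.94, both with overlap. The Cd163 difference ran from 0.46 to 1.80 with 1 tumor left out. Of the 16 differences 13 were negative. Fcrls, an Fc receptor-like gene of macrophages and microglia outside the list, was at 0.61 to 4.24 and 4.39 to 6.603. Of type I interferon, MHC class I and MHC class II genes 0, 1 and 0 were without overlap. The class I gene was lower, 1 of 12, where 6.23% of all genes were. The list medians were -0.35, 0.16 and 0.63. With 1 tumor left out these ran from -0.75 to -0.23 (-0.56 without S46), -0.17 to 0.26 (0.11 without S46) and 0.33 to 0.80, and the interferon median was 0.85 within Rag2-/- and -0.35 within Rag2+/- tumors and -0.0044 with S41 and S56 taken off the sides. The class I median turned to -0.17 under quantile normalization and to -0.35 with equal sums. In these 2 settings the class II median was 0.39 and 0.17 and the interferon median -0.53 and -0.70.

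The p53 target genes did not move together. Of 15 that passed the filter 4 were higher without overlap and 0 lower, where 8.29% and 6.23% of all genes were, and the median difference was 0.98. Without S46 3 of 15 were higher, where 12.2% of all genes were. Ccng1, cyclin G1, was at 6.89, 8.70 and 8.87 in muscle-rich and 4.37, 4.79 and 5.95 in muscle-poor tumors. Phlda3, an inhibitor of Akt signaling, was at 6.21 to 8.29 and 4.31 to 6.19, and Eda2r, a receptor of ectodysplasin, at 2.90 to 5.53 and 1.16 to 2.71. Cdkn1a, the cell cycle inhibitor p21, differed by 1.51 with overlap, while Bax, Bbc3 and Pmaip1, which act in cell death, differed by 0.03, -0.42 and -0.26. Trp53 itself, the gene the guide was made to cut, was at 3.85 to 4.25 and 4.07 to 5.32.

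Over all tested genes, the largest difference without overlap was that of Mettl21c, a lysine methyltransferase of muscle, at 2.06, 5.46 and 6.24 in muscle-rich and -3.18, -2.77 and -1.05 in muscle-poor tumors, a difference of 7.45. Near the floor this value depends on the number added before the log2, and it was 4.96 with 1 and 8.78 with 0.01 in place of 0.1. Prkag3, the regulatory subunit of the energy sensor AMPK that is found in fast muscle, differed by 6.30, and Smco1, Dhrs7c and Lrrc30 by 6.07, 5.98 and 5.94. In the other direction the 15 largest differences among genes without overlap reached from -3.23 for Gm9008 to -2.31 for Cbx2, and held Fcrls (-3.10), Adam12 (-2.64), Aspm (-2.63), Ccnf (-2.60) and Kcnj15, a potassium channel (-2.40). Genes with overlap went further, down to -4.35 for Xist, and of 267 genes at -2 or lower 32 did not overlap.

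The genes whose values followed the score most closely over the 19 tumors, markers left out, were Tmod4, Tnnc2, Tnni2, Eef1a2, Myom1, Myl1, Myoz1 and Ldb3, with Pearson r from 0.995 to 0.998. Eef1a2, the elongation factor of muscle and neurons that replaces Eef1a1 there, was at 7.03, 9.68 and 10.24 in muscle-rich and 1.79, 4.23 and 5.24 in muscle-poor tumors. The most opposed genes were of another kind, with r from -0.926 to -0.936, among them Arhgef2, an exchange factor bound to microtubules, and the RNA-binding proteins Hnrnpm, Hnrnpd, Hnrnpk and Hnrnpf. Their differences were small, -1.03 for Arhgef2, -0.82 for Hnrnpm and -0.76 for Hnrnpk, and all tumors share the scaling that a large muscle share can move.

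The direction was then read within each genotype. With the 6 and 6 tumors parted on the score, a gene without overlap has the same direction in both genotypes by construction, so slopes over all tumors of a genotype were taken instead, which still share those 12 tumors. Of the 1059 higher genes other than the markers, the slope was positive in 1059 in the 11 Rag2-/- tumors and in 1058 in the 8 Rag2+/- tumors. Over all genes it was positive in 46.7% and 44.9%. Of the 799 lower genes, the slope was negative in 799 and 798, and over all genes in 53.3% and 55.1%. Because the shared tumors also chose the genes, this agreement is close to fixed in advance. The median slope of the higher genes was 0.26 log2 units per unit of score in Rag2-/- and 0.46 in Rag2+/- tumors, and of the lower genes -0.12 and -0.18. In tumors with high and with low Xist, 98.6% and 100% of the higher genes had a positive slope, where 45.7% and 43.9% of all genes did.

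The 7 tumors between the sides, 4 Rag2-/- and 3 Rag2+/-, were not used to choose genes. Their scores ran from 9.42 to 11.01, a narrow range. Of the 1059 higher genes 86.9% had a positive slope there, where 48.3% of all 12822 genes did, and of the 799 lower genes 64.8% had a negative slope, where 51.7% of all genes did. Of the muscle list genes 102 of 105 had a positive slope, with a median of 0.89. This is close to fixed in advance, because the score is itself made of muscle genes. Slopes were also positive in 20 of 21 genes of oxidative phosphorylation (median 0.20) and 13 of 13 of fatty acid oxidation (0.26). In the cell cycle list 24 of 24 slopes were negative (-0.27). Other lists went against their difference between the sides: slopes were negative in 8 of 8 MHC class II genes (median -0.35), 7 of 7 mast cell genes (-0.35), 7 of 9 T cell genes (-0.37), 9 of 12 endothelial genes (-0.09) and 12 of 12 MHC class I genes (-0.56), and positive in 10 of 16 macrophage genes (0.15), 6 of 10 smooth muscle genes (0.14) and 5 of 8 tendon genes (0.15). Ccnf had a slope of 0.01, and Adam12, Fcrls and Kcnj15 had 0.03, 0.16 and 0.15, none of them negative.

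Tested with limma, 16 genes rose with the score in the 7 tumors (0.125% of genes) and 2 fell (0.0156%), at an adjusted p under 0.05. The score is a mean of muscle fiber genes, so a rise of other fiber genes with it is nearly built in. Calls of muscle list genes are therefore not independent support for a muscle pattern. Of the 16, 11 were in the muscle lists (0 fell), among them Tmod4 with a slope of 1.10 ± 0.12 (SE), Neb, the giant ruler protein of the thin filament, with 1.19 ± 0.13, Tcap, the titin cap, with 1.22 ± 0.15, and Trdn, the triadin of calcium release, with 1.11 ± 0.14. Tmem38a, a potassium channel of the sarcoplasmic reticulum, and Tuba8, an alpha tubulin, were among the 5 outside the lists, with slopes of 1.10 and 1.06. The 2 that fell were Usp18 (-1.09 ± 0.14) and Apol9b (-1.52 ± 0.17), both induced by interferon, and in the type I interferon list, which holds Usp18, 15 of 15 slopes were negative in these 7 tumors. No gene of oxidative phosphorylation, fatty acid oxidation or the cell cycle passed in either direction. The calls are fragile: with genotype as a covariate 0 genes passed, and leaving out 1 of the 7 tumors left 0 to 8 rising and 0 to 1 falling, while at an unadjusted p under 0.05 limma gave 643 rising and 423 falling genes. With genotype as a covariate the counts at an unadjusted p under 0.05 were 733 and 483.

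**Figure D5:**
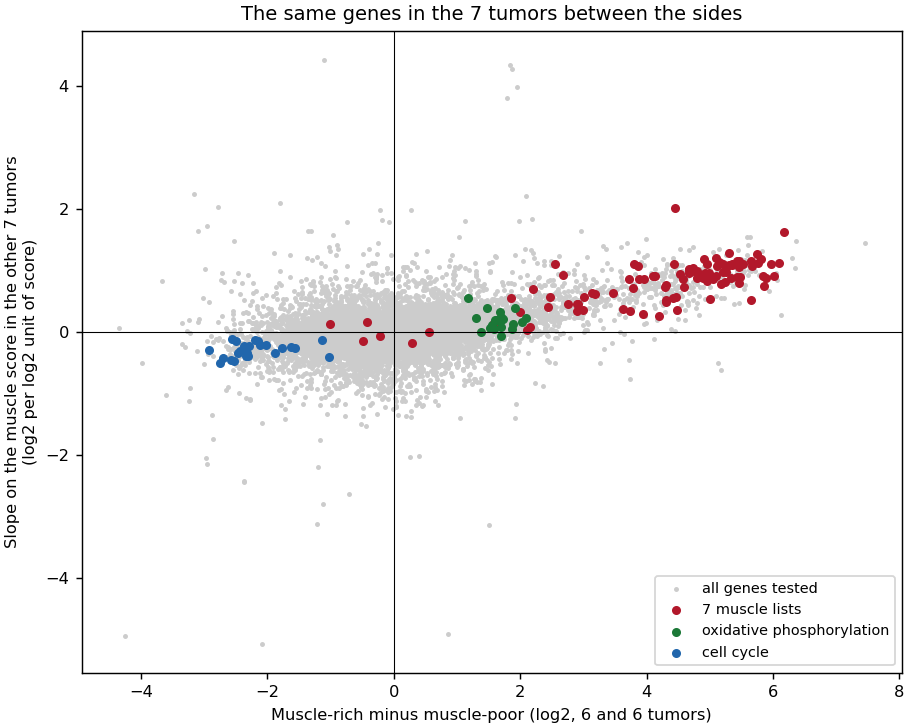
Each point is a gene, placed by its muscle-rich minus muscle-poor difference (log2, 6 and 6 tumors) and by its slope on the score in the 7 tumors that were in neither side (log2 per log2 unit of score). Genes of the muscle lists (red) lie in the upper right with 102 of 105 slopes above 0, oxidative phosphorylation (green) has 20 of 21 slopes above 0, and all 24 cell cycle genes (blue) lie below 0.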

How the data were processed

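Bulk RNA sequencing of 19 primary p53/MCA sarcomas was used, 1 library per tumor. Per the methods, the authors mapped reads with the aligner of Omicsoft Array Studio against mouse B38, allowing 2 mismatches, quantified Ensembl R86 genes as FPKM and upper-quartile normalized them. The deposited values are log2 values, whose lowest level is log2 of 0.1 in all 19 libraries. The labels' processing notes also list Trimmomatic 0.36, STAR, HTSeq and mm10, which the methods give for another analysis. Of 48795 gene identifiers 48349 were matched to a symbol, and the columns without a matching tumor numbered 0. The values are not counts. Depth was estimated from the step of 1 fragment among the low values of single-transcript genes, with GENCODE vM21 lengths, and 81.8 to 92.0% of these values came out whole within 0.05 of a fragment.

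Tumors were grouped by genotype from the labels. For each gene the means of the 6 muscle-rich and 6 muscle-poor tumors were subtracted, and a gene counted as without overlap when all 6 values of a side lay above all 6 of the other. The filter kept the 12826 genes whose log2 values averaged above 0. The 31 gene lists held 420 genes, 1 of which matched no symbol in the files. The genotypes were compared by two-sided exact permutation over all 75582 relabelings. Slopes in the 7 tumors between the sides were tested with limma 3.58.1 (R 4.3.3, intensity trend, Benjamini-Hochberg at 0.05). In a simulation the residuals of these 7 tumors were shuffled gene by gene, and slopes of 1 and 2 in either direction were added. Over 12822 genes limma recovered 38% and 81% of 100 changed genes each, with 6 false calls. The shuffling removes the correlation between genes, so these rates need not hold for the measured values. Other steps ran in Python 3.11.15 with scipy 1.17.1, pandas 2.3.3, numpy 2.4.6 and matplotlib 3.10.9.

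The members, lists and alternatives were chosen with earlier results of these data known. Named genes are the 4 markers, up to 4 genes of each list with the largest absolute difference, the 15 largest differences without overlap in each direction, the 8 highest and 8 lowest correlations with the score, and Rag2, Trp53 and Xist. Other list members, the myosin heavy chains, Ddx3y and the genes called by limma were named after their values were seen. The alternatives were other pseudocounts, filters and scalings, 5 and 7 tumors a side, another score, other variance models, genotype as a covariate and each tumor left out in turn. Taking S41 and S56 off the sides and the split by Xist were added after seeing the data. The labels do not say which tumors came from which litter. Exome data and transplant tumors were not analysed here.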

Additional observations from a re-analysis of the deposited data

Results flagged for a closer look

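Within each side of 6 tumors, the highest or lowest value was set against its neighbor by Dixon's criterion at 95%. Chance alone meets it in about 1 of 20 groups drawn at random. The sides were cut on the score, so that rate does not hold for the score, the markers or genes that follow them. Of 236 such checks 40 met the criterion, 21 of them in S46 and 15 in S47, and related genes of 1 tumor are not independent.

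S47, the muscle-rich tumor with the lowest score, stood below the other 5 in muscle measures: in the score (11.53), the share of summed FPKM on the muscle lists (6.98%), the mean of the excitation and calcium list (5.72), and in Ckm (11.31), Acta1 (11.81), Mylpf (11.24), Myl1 (10.55), Myf6 (3.85), Ucp3 (3.25), Pdk4 (4.87), Mettl21c (2.06), Prkag3 (3.48), Eef1a2 (7.03) and the p53 target Ccng1 (6.89). The score and the markers chose and ordered the side, so those flags restate the ranking, as do those of genes that follow the score. The Xist value of S47 was 3.91, above those of the other 5.

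S46, a muscle-poor Rag2-/- tumor, stood above the other 5 of its side in fat genes, with 9.11 for the mean of the adipocyte list, 8.75 for Cidec, 8.47 for Plin1, 7.57 for Plin4 and 10.08 for Lpl. It was also above them in the means of the fatty acid oxidation (5.70), endothelial (4.76) and Schwann cell (3.25) lists and in Mbp (4.16), Mrc1 (7.36), Csf1r (7.91), Uqcrfs1 (6.27) and Uqcrc1 (6.93). It was below them in the means of the mesenchymal (6.63), tendon (-0.15) and developmental fiber (0.0061) lists and in Fn1 (7.70), Pdgfra (4.87), Adam12 (4.36), Plk1 (3.24) and Xist (-3.05).

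S56, the tumor with the highest score, stood above the other muscle-rich tumors in the endothelial list (4.44) and below them in the macrophage list (4.87). Plin4 was low in the muscle-rich S52 (3.04), and Igkc was high in S53 (5.61), the 1 Rag2+/- tumor among the muscle-poor.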

How the results depend on the processing

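No paired analysis was possible because the labels give no numbers or litters that pair tumors. Under the alternatives 8 list medians and 47 values of named genes moved beyond the spread between tumors, and 921 and 4532 did not. With 5 tumors a side 1983 genes were higher and 1664 lower without overlap, and with 7 a side 629 and 244. Leaving out 1 tumor and choosing the sides again gave 697 to 1568 higher and 325 to 1921 lower genes, the upper ends without S46. Without S51, S52, S56, S59 or S60 they were 697 to 730 and 325 to 368, and without S47 450 genes were lower. List medians that moved were the myogenic regulators (1.98 without a filter, 2.10 with a mean above 2), T cells (1.82 without a filter, 0.15 with equal sums outside the muscle lists), Schwann cells (2.73) and glycolysis and hypoxia (1.15) with a mean above 2, endothelium (-0.44 with equal sums) and the fast list (4.26) and the score difference (4.34) under quantile normalization. The medians of the endothelial, mast cell, MHC class I, tendon and NK cell lists changed sign under at least 1 alternative. The genotype difference in score was -1.99 over other sarcomere genes and -2.84 to -1.89 with 1 tumor left out, with exact p from 0.0163 to 0.11, under 0.05 without S47, S51, S53, S55 or S58. In the 7 tumors between the sides, limma called 29 rising and 3 falling genes with a mean above 2, 8 and 1 under quantile normalization, 0 and 0 with genotype as a covariate, without a filter or without an intensity trend, and 0 to 8 and 0 to 1 with 1 tumor left out. At an unadjusted p under 0.05 these settings gave 517 to 948 rising and 336 to 648 falling genes. Causes were not tested. The estimated 5.17 M fragments of S41 make its low values the least precise.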

Other observations

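Of the 121 muscle genes 12 lay below the level filter and are not part of the counts above. Among them were receptor subunits of the contact between nerve and muscle. Chrne, the adult epsilon subunit of the acetylcholine receptor, was at 1.33, 2.03 and 2.82 (lowest, median, highest log2 value) in muscle-rich and at -3.32, -2.82 and -1.25 in muscle-poor tumors, with 3 of the 6 muscle-poor tumors at the value of no fragments. Chrnd, the delta subunit, was at -0.20 to 2.55 and -3.32 to -0.45, and Chrng, the gamma subunit of fetal and denervated muscle, at -1.17 to 1.55 and -3.32 to 0.02, with overlap.

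Genes of satellite cells and of myoblast fusion were near the floor on both sides. Pax7, the transcription factor of satellite cells, was at -2.84 to -0.74 in muscle-rich and at -3.32 to -2.88 in muscle-poor tumors, and Myf5, an early myogenic factor, at -3.32 to -0.07 and -3.32 to -3.06. Mymk, the fusion protein myomaker, was at -2.23 to 1.63 and -3.32 to -1.30, and Mymx, its partner myomixer, was at the value of no fragments in 6 of 6 muscle-poor and 2 of 6 muscle-rich tumors. These genes were named after their values were seen, and at these levels a value rests on few fragments.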
